A study of Drosophila melanogaster with 12 samples.

Results

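The mitochondrial ribosomal protein genes were followed in S2R+ cells, a cultured Drosophila melanogaster line of embryonic origin with hemocyte (blood cell) properties. Members were all genes whose symbol starts with mRpL (large subunit) or mRpS (small subunit), found by matching the CG identifier of each array probe to a RefSeq gene table. The table held 73 such genes, 47 of the large and 26 of the small subunit. Of these, 72 had probes (84 probes), mRpL53 had no matched probe, and the probe assigned to mRpL37 was above background on too few arrays to be tested. That probe carries an older identifier that the table also lists for a neighbouring gene, so its assignment is uncertain. The remaining 71 genes, 45 of the large and 26 of the small subunit, were among 15109 features tested in the whole series. They were represented by 83 probes, each well above background on all 12 arrays. Subunits follow the symbol throughout, and the place of each protein in the ribosome was not checked. For example, mRpS30 was counted in the small subunit, although its human relative sits in the large one.

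Cultures spent 24 h at 1 of 4 temperatures (11, 14, 25 and 30 °C), with 3 biological replicates per temperature and RNA of each replicate on its own single-colour Agilent array. The number of plated cells was adjusted to give comparable final densities, 4500000 for 11 °C, 3500000 for 14 °C, 1700000 for 25 °C and 1500000 for 30 °C, so that effects of plated cell number and of temperature cannot be told apart. Cells at 25 °C, the usual culture temperature, were the reference for single temperatures, and the main comparison set the low temperatures (11 and 14 °C, 6 arrays) against the high ones (25 and 30 °C, 6 arrays). The labels name no transgene or drug in any group.

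Mitochondria translate the mRNAs of their own small genome, which encode core subunits of the respiratory chain and the ATP synthase, on a dedicated ribosome related to that of bacteria. Its rRNAs are transcribed inside the organelle, whereas its proteins are encoded in the nucleus, made in the cytosol and imported. The small subunit binds the mRNA and reads the codons, and the large subunit joins the amino acids. Proteins with a low number carry the number of their bacterial relative, and most of those with higher numbers are found only in mitochondria.

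Values are log2 fluorescence signals after each array was shifted to a common median, and a difference of 1 is a 2-fold difference in signal. A gene was called lower or higher at a Benjamini-Hochberg adjusted p below 0.01 in limma over all features. Per array, 53.9 to 61.1% of gene spots were well above background, and no gene spot was saturated. Before the shift, the median signal of the gene spots ran from 35.8 to 60.1 between arrays. Replicates of the member genes spread less than those of most features, with a median SD of 0.14, against 0.22 for all features and 0.19 for the features well above background on all 12 arrays. The hemocyte markers srp, pnr, Pxn and crq were well above background on 12 arrays, eater on 11, Hml on 9 and NimC1 on 3. Of these 7 markers, 6 were lower at the low temperatures, against 30.6% of all features. Hml and NimC1 had mean log2 signals of 6.47 and 4.02 at 30 °C. At the other temperatures these were only 2.95 to 3.52 and 1.71 to 2.75, so their calls rest in part on dim values. The summed signal of the 7 markers per array was 20708 to 25986 at 11 °C, 18981 to 20873 at 14 °C, 22391 to 29221 at 25 °C and 17112 to 21274 at 30 °C. The part of these differences in the results below was not tested. A lower signal in bulk RNA cannot tell fewer expressing cells from less RNA per cell.

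Mitochondrial ribosomal protein transcripts were more often lower than higher at the low temperatures. Of the 71 genes, 46 (64.8%) were lower and 1, mRpL48, was higher, while 24 were not called. With arrays scaled on spike-in controls, 23 (32.4%) were lower and 4 higher, against 2724 lower and 3753 higher of the 15109 features. Among all features, 30.6% were lower and 18.2% higher, and among features well above background on all 12 arrays 32.4% were lower and 17.1% higher. The median log2 change of the 71 genes was -0.46, against -0.17 for all features, a difference of -0.28. Most changes were below 2-fold, as 5 genes were lower by at least 2-fold (11.4% of all features) and 1 was higher by at least 2-fold (9.24% of all features). The 5 became 2 under 75th percentile, quantile, bright-probe or spike-in scaling, 3 with normexp background correction and 8 with slide as a block. In these settings, in that order, 1183, 1424, 1193, 1121, 623 and 2024 of the 15109 features were lower by at least 2-fold. The split depended on the scaling. When arrays were aligned at their 75th percentile, which moved the median of all features to 0.02, 33 genes were lower and 6 higher, against 23.6% and 28.5% of all features. The member median was then -0.26. Its distance of -0.28 from all features stayed the same by construction, because both scalings shift each array by a constant. All 33 of these lower genes belonged to the 46, which that common upward shift of the changes largely fixes.

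**Figure D1:**
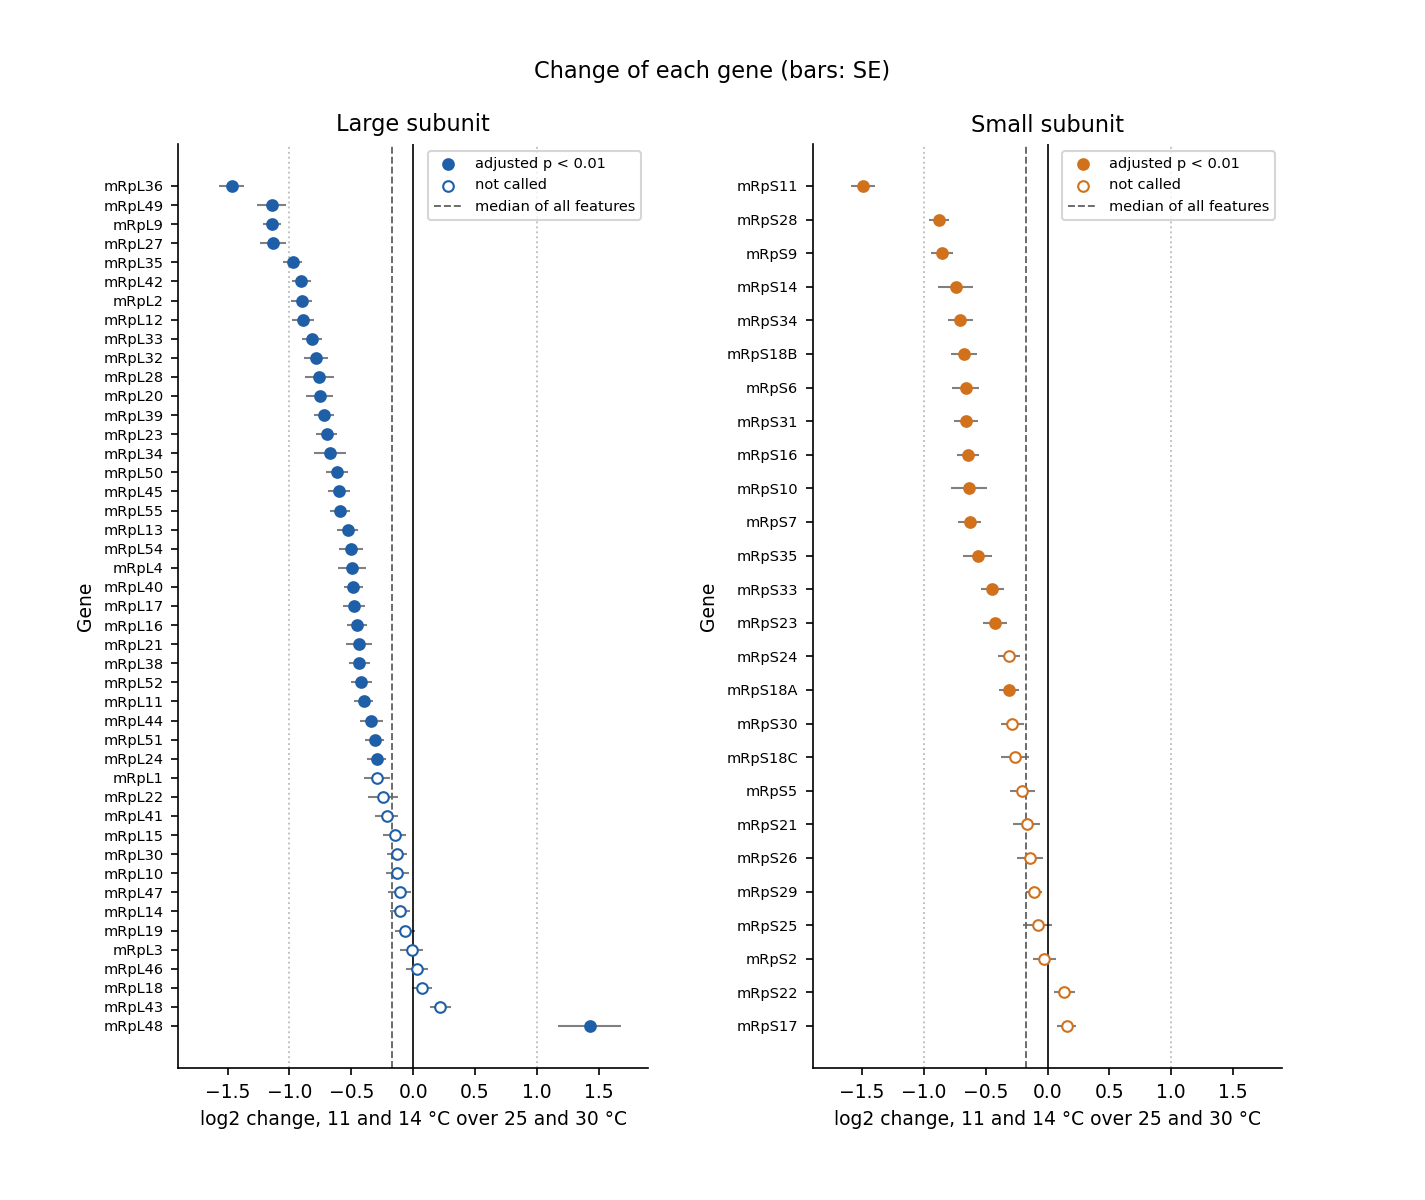
Log2 change of each of the 45 large subunit genes (left) and 26 small subunit genes (right) at 11 and 14 °C over 25 and 30 °C, with SE bars, filled points for adjusted p below 0.01, dotted lines at 2-fold and a dashed line at the median of all features (-0.17). Changes run continuously between -1.49 (mRpS11) and 0.22 (mRpL43), with mRpL48 alone at 1.43.

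In 38 of the 71 genes (53.5%) all 6 low temperature arrays lay below all 6 high temperature arrays, against 21.4% of all features, and in 1 gene (mRpL48) all 6 lay above, against 10.4% of all features. The mean signal was lowest at 11 °C in 65 genes (91.5%, against 38.4% of all features), and in 63 genes (88.7%, against 38.9%) it rose in the order 11, 14 and 25 °C. Between 25 and 30 °C the genes divided, with the highest mean at 25 °C in 30 genes and at 30 °C in 34. Of the 5 others with a maximum at 14 °C, the largest change was that of mRpL43, and the 2 with a maximum at 11 °C were mRpL48 and mRpS22. These shapes are descriptions of the means, without a test.

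**Figure D2:**
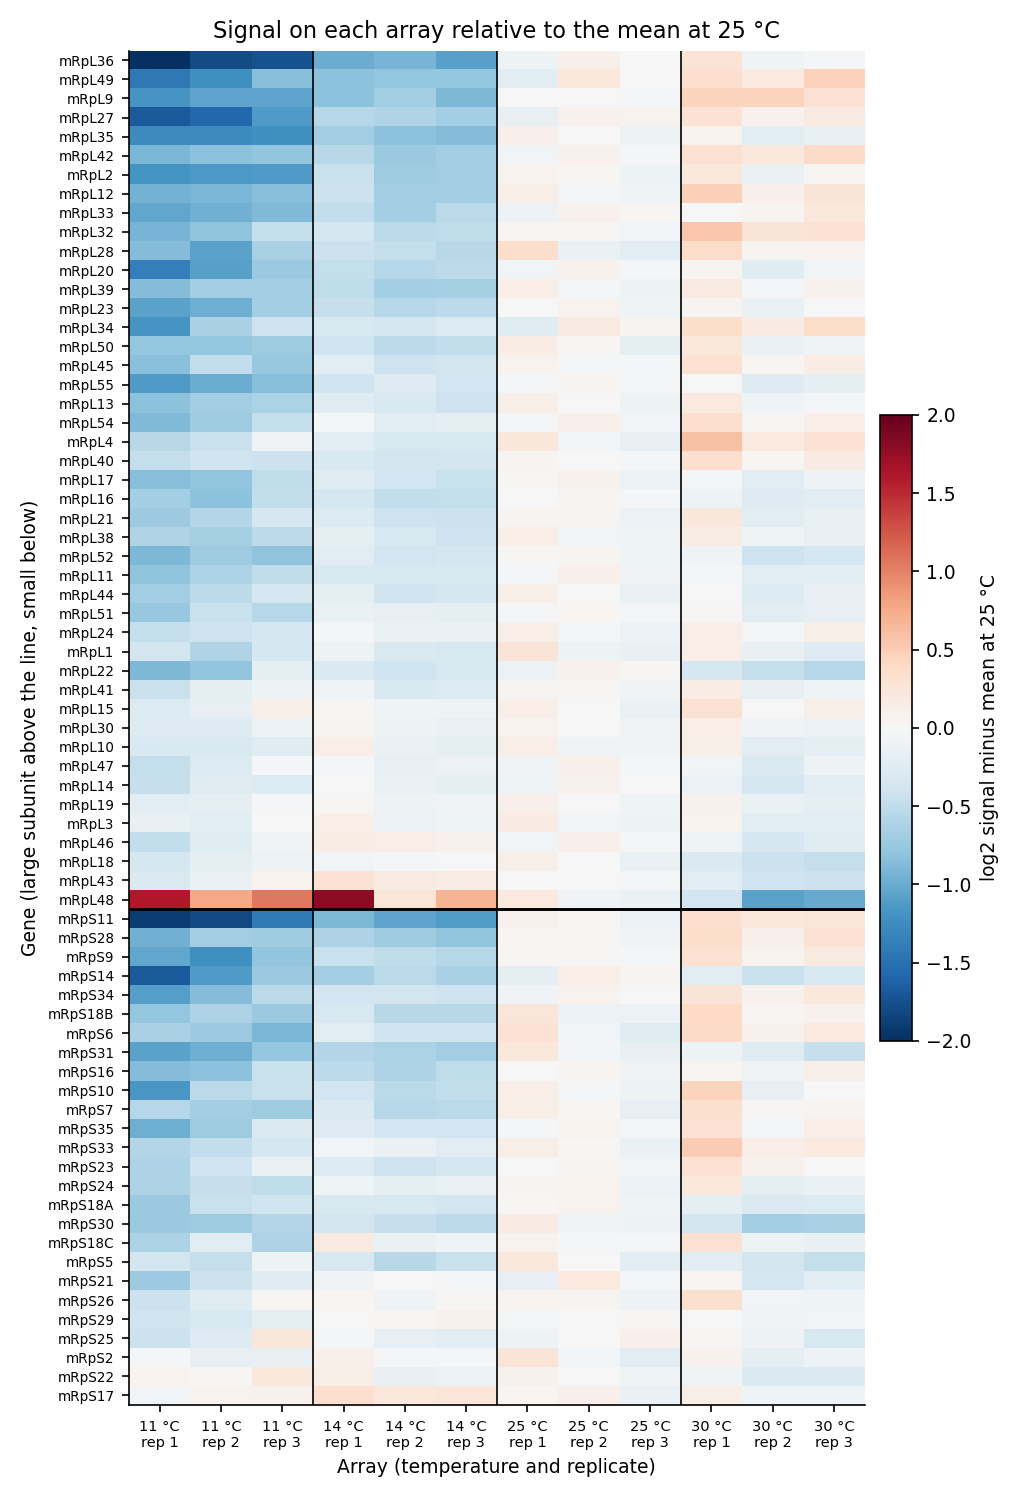
Log2 signal of each gene on each of the 12 arrays minus its mean at 25 °C (colour scale -2 to 2), with large subunit genes above the line and small subunit genes below, each ordered by the change in the cold. Blue deepens towards 11 °C in most rows, whereas mRpL48 is red on all 6 low temperature arrays.

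Among large subunit genes, 31 of 45 (68.9%) were lower and 1 was higher, against 30.6% and 18.2% of all features. The other 13 were not called, and the median change of the subunit was -0.48. The largest decrease was that of mRpL36 (CG18767), the relative of a very small bacterial protein. Its log2 signal was 11.31, 11.63 and 11.68 at 11 °C, 12.42, 12.48 and 12.33 at 14 °C, 13.31, 13.52 and 13.42 at 25 °C, with 13.69, 13.33 and 13.39 at 30 °C. The 3 arrays at 11 °C lay below those at 14 °C, and these below all arrays at the higher temperatures, which overlapped each other. The low temperatures were 2.77-fold below the high ones (log2 change -1.47, SE 0.10, adjusted p 3.78e-07).

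Next came mRpL49 (CG4647), a protein found only in mitochondrial ribosomes. Its log2 signal was 11.98, 12.18 and 12.56 at 11 °C, 12.59, 12.63 and 12.63 at 14 °C, 13.18, 13.62 and 13.41 at 25 °C, with 13.74, 13.61 and 13.87 at 30 °C. The low and the high arrays did not overlap, and the change was -1.14 (SE 0.12, adjusted p 8.18e-06). For mRpL9 (CG31478), the signals were tightly grouped at 12.45, 12.58 and 12.58 at 11 °C, 12.82, 12.95 and 12.74 at 14 °C, 13.64, 13.64 and 13.61 at 25 °C, with 14.07, 14.08 and 13.93 at 30 °C. The 4 temperatures did not overlap at all, and the change of -1.14 had an SE of 0.07 (adjusted p 2.69e-07). In bacteria, the protein L9 reaches out from the large subunit on a long stalk.

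The relative of bacterial L27, a protein close to the peptidyl transferase centre, was encoded by mRpL27 (CG33002). Its log2 signal was 11.75, 11.86 and 12.30 at 11 °C, 12.86, 12.83 and 12.75 at 14 °C, 13.27, 13.52 and 13.51 at 25 °C, with 13.72, 13.52 and 13.62 at 30 °C. All arrays at 11 °C lay below those at 14 °C, and the ranges at 25 and 30 °C just touched. The low temperatures were 2.19-fold below the high ones (log2 change -1.13, SE 0.11, adjusted p 4.36e-06). Just short of 2-fold were mRpL35 (change -0.97) and the mitochondria-specific mRpL42 (-0.90). The other 25 lower genes of the large subunit had changes between -0.90 and -0.30, among them mRpL12 (-0.89), whose bacterial relative forms the stalk that recruits translation factors, and mRpL2 (-0.90), a core rRNA-binding protein. The 3 highest changes of the subunit were those of mRpL48, mRpL43 (0.22, adjusted p 0.0376) and mRpL18 (0.07, adjusted p 0.441). Both of the last were called higher when arrays were aligned at the 75th percentile (0.42 and 0.27), as was mRpL3 (0.18), whose change was -0.01 with median scaling.

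**Figure D3:**
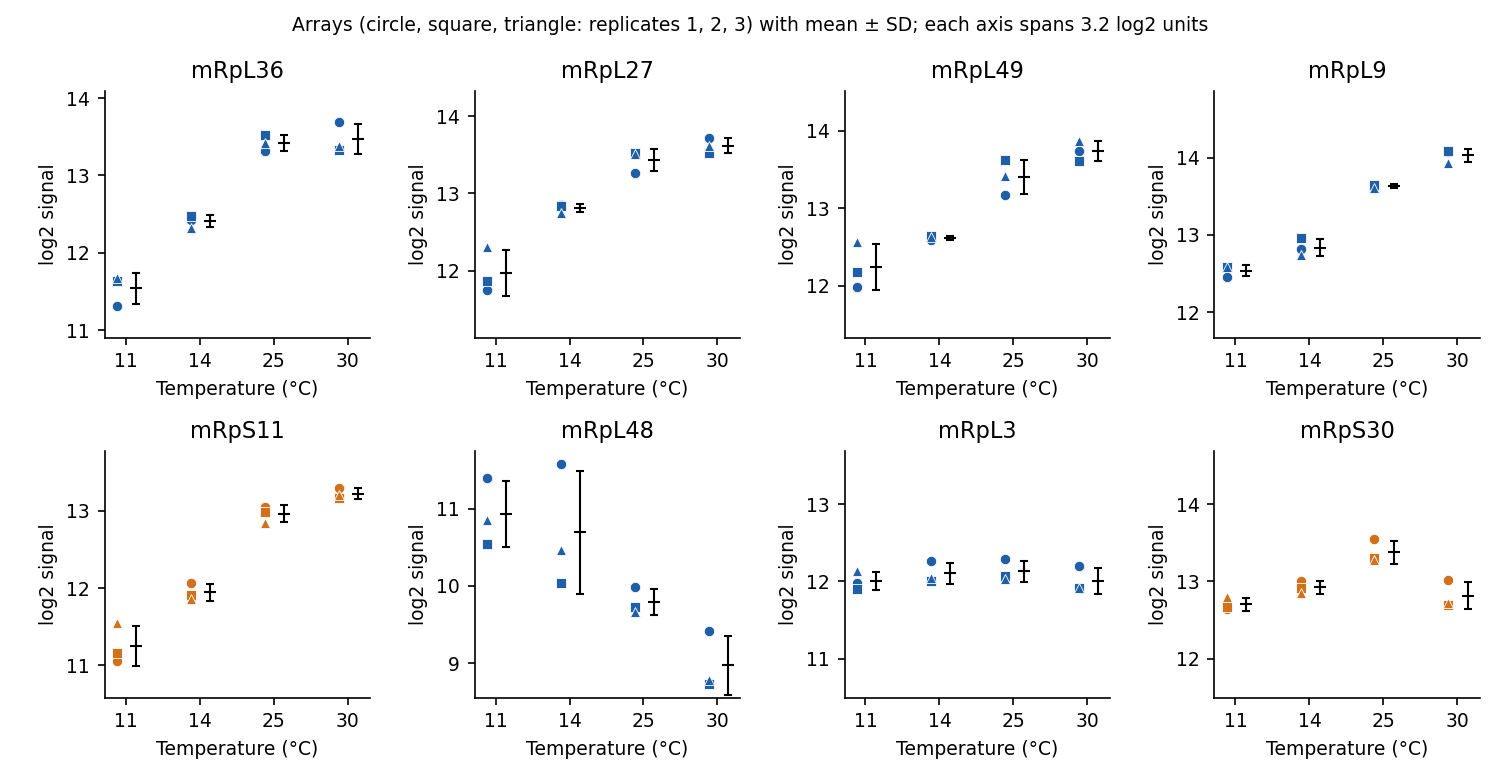
Log2 signal on each array by temperature (°C) for 8 genes, with replicates 1, 2 and 3 as circle, square and triangle beside the mean ± SD of 3 arrays. mRpL36, mRpL27, mRpL49, mRpL9 and mRpS11 climb with temperature, mRpL48 runs the other way with its replicate 1 on top at each temperature, mRpL3 is near 12 throughout, and mRpS30 peaks at 25 °C.

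Among small subunit genes, 15 of 26 (57.7%) were lower and none was higher in limma, against 30.6% and 18.2% of all features. The other 11 were not called, and the median change of the subunit was -0.43. At an unadjusted p below 0.05, 18 small subunit genes were lower and 0 higher, against 6067 lower and 3706 higher of the 15109 features. The largest decrease was that of mRpS11 (CG5184), the relative of a bacterial protein of the platform that helps hold the mRNA. Its log2 signal was 11.06, 11.16 and 11.55 at 11 °C, 12.06, 11.92 and 11.86 at 14 °C, 13.06, 12.99 and 12.85 at 25 °C, with 13.30, 13.17 and 13.20 at 30 °C. No temperature overlapped with another, and the low temperatures were 2.82-fold below the high ones (log2 change -1.49, SE 0.10, adjusted p 3.39e-07). Its 2 probes gave -1.48 and -1.51.

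The other small subunit decreases were below 2-fold. mRpS28 had log2 signals of 11.67, 11.93 and 11.93 at 11 °C, 12.01, 11.92 and 11.85 at 14 °C, 12.67, 12.66 and 12.57 at 25 °C, with 12.99, 12.74 and 12.93 at 30 °C. Its low temperatures overlapped each other and lay below all high temperature arrays (change -0.88, SE 0.08, adjusted p 5.07e-06). mRpS9, the relative of a bacterial protein whose tail contacts the tRNA in the decoding region, changed by -0.86 (SE 0.09). mRpS14, from the head of the subunit, changed by -0.74 (SE 0.14) and was the most scattered of the lower small subunit genes named here, with 12.76, 13.30 and 13.69 at 11 °C. Its call was lost under 75th percentile scaling (-0.55, adjusted p 0.0136). The mitochondria-specific mRpS34 changed by -0.70 and mRpS18B by -0.67. The probe of mRpS34 carries an older identifier, CG13037, that the gene table also lists for a neighbouring gene, so its assignment is less certain. The other 9 lower genes lay between -0.66 and -0.31. The 3 highest changes were those of mRpS17 (0.16, adjusted p 0.109), the mitochondria-specific mRpS22 (0.14, adjusted p 0.188) and mRpS2 (-0.03, adjusted p 0.831). Under 75th percentile scaling mRpS17 (0.35) and mRpS22 (0.33) were called higher.

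The exception in direction was mRpL48 (CG17642), a mitochondria-specific protein of the large subunit. Its log2 signal was 11.39, 10.55 and 10.85 at 11 °C, 11.58, 10.04 and 10.47 at 14 °C, 9.99, 9.72 and 9.67 at 25 °C, with 9.42, 8.73 and 8.78 at 30 °C. All 6 low temperature arrays lay above all 6 high temperature arrays, the arrays at 30 °C lay below those at 25 °C, and those at 11 and 14 °C overlapped. The low temperatures were 2.69-fold above the high ones (log2 change 1.43, SE 0.26, adjusted p 0.000573). Replicate 1 was the highest of the 3 at each temperature, and the replicate SD of 0.50 was the largest among the 71 genes. On replicate 1 arrays alone, which shared a slide, the difference was 1.78, and on the others 1.25. The single comparisons of 11 °C (1.14, adjusted p 0.0226) and 14 °C (0.90, adjusted p 0.0751) with 25 °C, and of 30 °C with 25 °C (-0.82, adjusted p 0.137), were not called. These calls varied with the setting. The gene was called higher at 11 °C under 75th percentile (1.38, adjusted p 0.00419) and spike-in scaling (1.44, adjusted p 0.00182), under quantile, bright-probe and normexp settings, and with the slide or replicate block. At 14 °C it was called higher with spike-in scaling (1.32, adjusted p 0.00496) and with either block, and at 30 °C it was called lower with the slide block (adjusted p 0.00755). A single probe stood for the gene.

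The subunits were compared across the 4 temperatures by the median, over the genes of each, of the log2 signal minus the gene's mean at 25 °C. At 11 °C the large subunit median was -0.80, -0.67 and -0.50 on the 3 arrays, and the small subunit median was -0.69, -0.52 and -0.44. At 14 °C these were -0.25, -0.37 and -0.36 for the large subunit, and -0.28, -0.39 and -0.40 for the small subunit. At 30 °C they were 0.13, -0.14 and -0.09 for the large subunit, and 0.24, -0.08 and -0.07 for the small subunit. Thus, with median scaling, both subunits were lowest on the 11 °C arrays, intermediate at 14 °C, and overlapped between 25 and 30 °C. The medians of all features were -0.23, -0.26 and -0.13 at 11 °C and -0.12, -0.23 and -0.21 at 14 °C. The place of 14 °C depended on the scaling. With spike-in scaling, the median change at 14 against 25 °C was 0.09 for the large subunit, 0.07 for the small subunit and 0.23 for all features.

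The subunits stayed close to each other on every array. The large minus small difference averaged -0.11 ± 0.05 at 11 °C, 0.03 ± 0.01 at 14 °C, 0.01 ± 0.01 at 25 °C and -0.06 ± 0.05 at 30 °C (SD, n = 3 arrays each). At 11 °C it was -0.12, -0.15 and -0.06 on the 3 arrays, below 0 on each, and at 30 °C it was also below 0 on each, while at 14 and 25 °C it was above 0 on each. All arrays share the gene means at 25 °C as reference, so their agreement is not independent. The difference in low against high medians, large minus small, was -0.04, but it was 0.03 with slide as a block, so no order of the subunits is given for that comparison. At 11 against 25 °C the difference of medians turned to 0.03 with the brightest probe, so no order is given there either.

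**Figure D4:**
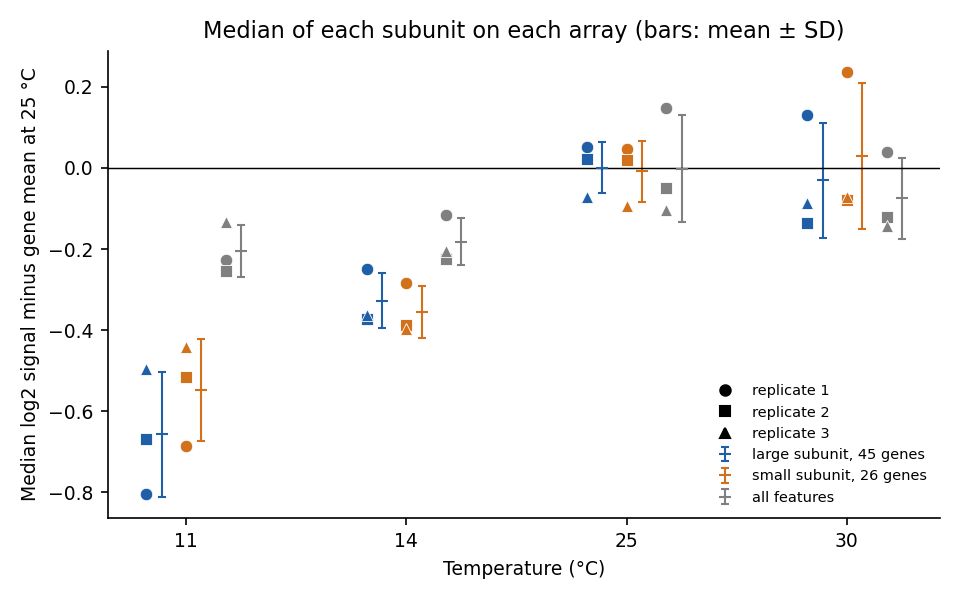
Median log2 signal relative to the mean at 25 °C of 45 large subunit genes (blue), 26 small subunit genes (orange) and all features (grey) on each array by temperature (°C), with mean ± SD of 3 arrays. Both subunits lie below all features at 11 °C and 14 °C, near 0 at 25 and 30 °C, and close to each other. With arrays scaled on spike-in controls, the member median at 14 °C turns to 0.08 and that of all features to 0.23.

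At 11 °C against 25 °C, 44 of 71 genes (62.0%) were lower and 0 were higher in limma, against 23.1% lower and 12.8% higher among all features. At an unadjusted p below 0.05, 53 were lower and 1 higher, against 5441 lower and 3024 higher of the 15109 features. The member median was -0.65, against -0.22 for all features. Here 10 genes were lower by at least 2-fold (11.2% of all features), and 4 under 75th percentile, quantile or bright-probe scaling, 3 with spike-in scaling and 5 with normexp. In these settings, in that order, 1038, 1317, 1059, 907 and 650 of the 15109 features were lower by at least 2-fold. The largest decreases were those of mRpL36, with a log2 change of -1.88 (3.68-fold, adjusted p 2.06e-06), and mRpS11, with -1.71 (3.27-fold). The highest change after mRpL48 was that of mRpS22 (0.11, adjusted p 0.489), which was called higher under 75th percentile (0.35), quantile (0.27) and bright-probe scaling (0.34). By subunit, 30 of 45 large and 14 of 26 small subunit genes were lower. Scaling on the spike-in controls left 15 lower genes, and a fit of the 11 and 25 °C arrays alone left 20. Of the 15109 features, 1601 were lower and 2741 higher with that scaling, and 1888 and 1211 in that fit.

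At 14 °C against 25 °C fewer genes passed. There were 16 lower genes (22.5%) and 0 higher ones in limma, against 13.5% lower and 7.49% higher among all features. At an unadjusted p below 0.05, 40 members were lower and 2 higher, against 4589 lower and 2265 higher of the 15109 features. The member median was -0.34, against -0.19 for all features, and it turned to 0.08 with scaling on spike-in controls, where 1 gene was lower and 3 were higher. The median of all features was 0.23 under that scaling, with 418 lower and 2171 higher of 15109 features. Below by 2-fold were mRpS11 (-1.02, adjusted p 0.000315) and mRpL36 (-1.01, adjusted p 0.000341), against 4.96% of all features, but neither passed 2-fold under the 4 other scalings or normexp, or without replicate 3 at 14 °C, and 1 of them passed it without replicate 1 or without replicate 2 at 25 °C. Under 75th percentile, quantile, bright-probe, spike-in and normexp settings, 395, 509, 400, 217 and 165 of the 15109 features were lower by at least 2-fold. The highest change after mRpL48 was that of mRpS17 (0.26, adjusted p 0.0915). It was called higher under all 4 other scalings and normexp, at 0.49 with 75th percentile (adjusted p 0.00499) and 0.68 with spike-in scaling (adjusted p 0.00527).

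Directly between the low temperatures, 3 genes were lower at 11 °C than at 14 °C (4.23%) and 0 were higher in limma, against 2.58% and 1.50% of all features, with 35 lower and 0 higher at an unadjusted p below 0.05. These were mRpL36 (-0.87, SE 0.14, adjusted p 0.00405), mRpL27 (-0.84, SE 0.15, adjusted p 0.00606) and mRpL55 (-0.65, SE 0.11, adjusted p 0.00591). The member median was -0.29, against -0.02 for all features. Of the 71 fitted changes 68 were below 0, against 7930 of the 15109 features. At an unadjusted p below 0.05, 2266 of all features were lower and 1691 higher. The count of 3 lower members was not firm in either direction. None remained in 5 of the 12 fits that left out 1 array, nor when the 11 and 14 °C arrays were fitted alone or without a filter on dim probes, whereas 20 genes were lower with normexp, 11 with quantile normalization, 6 with 75th percentile scaling, bright-probe scaling or slide as a block, and 7 without replicate 3 at 11 °C. Among the 15109 features, 752 were lower and 247 higher with normexp, 743 and 530 with quantile normalization, and 600 and 559 with 75th percentile scaling. With bright-probe scaling these were 610 and 561, with slide as a block 645 and 484, and without replicate 3 at 11 °C 654 and 219. The highest member changes were those of mRpL48 (0.23) and mRpS22 (0.15), both with adjusted p above 0.4.

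Between 30 and 25 °C the direction of the group depended on the scaling. The member median was -0.02, against -0.08 for all features, with 1 lower gene (1.41%) and 0 higher ones in limma, against 6.45% and 6.09% of all features. At an unadjusted p below 0.05, 7 were lower and 3 higher, against 3004 lower and 2178 higher of the 15109 features. With quantile normalization 1 member was lower and 5 higher (median 0.09), with normexp 7 were higher (median 0.17), and with spike-in scaling 1 was higher (median 0.23). Among all features, 1216 were lower and 1398 higher with quantile normalization, 537 and 1231 with normexp, and 393 and 1239 with spike-in scaling. Their medians were -0.002, 0.04 and 0.17. The gene called was mRpS30, whose human relative was named for the small subunit but sits in the large one. Its log2 signal was 13.02, 12.70 and 12.73 at 30 °C, against 13.55, 13.31 and 13.28 at 25 °C, without overlap (change -0.56, SE 0.13, adjusted p 0.00843). The cold cultures had 12.64, 12.67 and 12.80 at 11 °C and 13.01, 12.92 and 12.85 at 14 °C, so that 25 °C was highest. The call was lost in 10 of the 12 fits that left out 1 array and with spike-in scaling (-0.31, adjusted p 0.170). The highest changes, without a call, were those of mRpL9 (0.40, adjusted p 0.0182) and mRpL32 (0.37, adjusted p 0.0816). Both were called higher with quantile normalization (0.54 and 0.49) and normexp (0.60 and 0.53).

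For 10 genes several probes were tested, and they mostly gave the same change. In low against high, the probes of 8 of these genes differed by at most 0.17. For mRpS24 the difference was 0.40, with 1 probe lower (-0.51, adjusted p 0.000539) and the other not called (-0.11, adjusted p 0.342), so that the gene as a whole just missed the threshold (-0.31, adjusted p 0.0110). For mRpS5, the relative of a bacterial protein at the mRNA entry channel, the difference was 1.07.

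Of the 4 mRpS5 probes, the 1 designed on transcript RD (CG40049-RD) had log2 signals of 7.85, 7.92 and 8.31 at 11 °C, 8.25, 7.98 and 8.20 at 14 °C, 9.64, 9.40 and 9.26 at 25 °C, with 8.60, 8.57 and 8.59 at 30 °C. It was highest at 25 °C and lower at all other temperatures without overlap, by -1.41 at 11 °C (SE 0.15), -1.29 at 14 °C (SE 0.15) and -0.85 at 30 °C (SE 0.15, adjusted p 0.00215). The probes designed on transcript RB (0.14, adjusted p 0.351) and on RC (0.07 and -0.10, adjusted p 0.603 and 0.457) were not called in low against high. The averaged mRpS5 value (-0.20, adjusted p 0.112) therefore mixes probes with different changes. Which exon each probe covers was not analysed here.

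**Figure D5:**
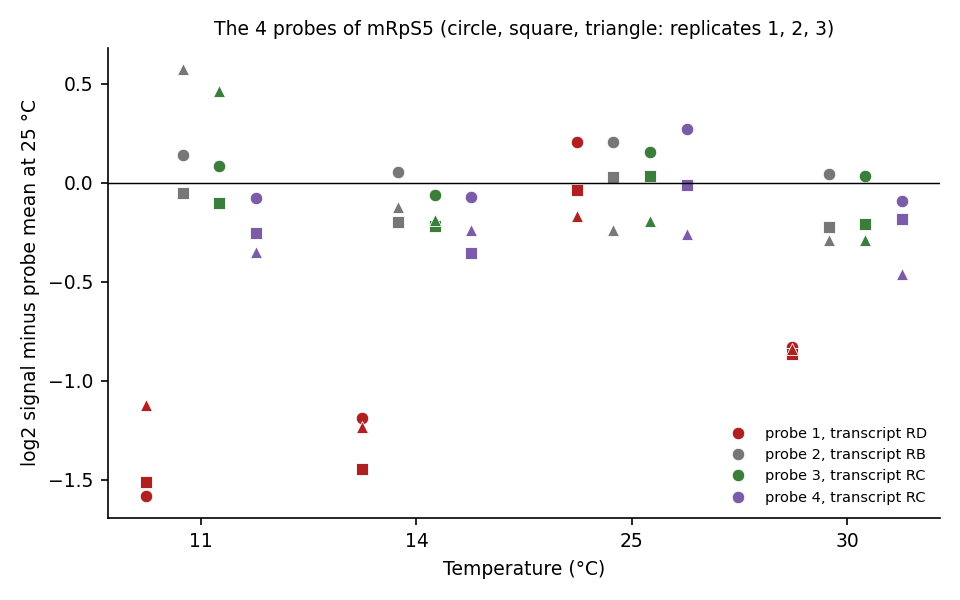
Log2 signal of the 4 probes of mRpS5 on each array minus the probe's mean at 25 °C, by temperature (°C), with replicates 1, 2 and 3 as circle, square and triangle. The probe on transcript RD lies between -1.58 and -1.12 at 11 °C and near -0.85 at 30 °C, while the other 3 probes scatter around 0.

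Genes with a bacterial number (up to 36 in the large and 21 in the small subunit) and genes with a higher, mitochondrial number were set side by side without a test. Among all features in low against high, 30.6% were lower, 18.2% higher and 11.4% lower by at least 2-fold. In the same comparison, 28 of 42 genes with a bacterial number were lower (66.7%, median -0.51). Of those with a mitochondrial number, 18 of 29 were lower (62.1%, median -0.42). Within the large subunit these were 19 of 28 (median -0.49) and 12 of 17 (median -0.44), and within the small subunit 9 of 14 (median -0.63) and 6 of 12 (median -0.37). Of the 5 genes lower by at least 2-fold, 4 had a bacterial number. The mitochondrial number class held the only higher gene.

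Ribosomal proteins under other symbols followed the same direction. tko, the fly mRpS12 named after a bang-sensitive mutant, had log2 signals of 13.78, 14.04 and 14.19 at 11 °C, 14.53, 14.44 and 14.48 at 14 °C, 14.83, 15.01 and 14.87 at 25 °C, with 14.85, 14.60 and 14.81 at 30 °C. The low temperatures did not overlap with the high ones (change -0.59, SE 0.09, adjusted p 0.000201). bonsai, the fly relative of bacterial S15, changed by -0.92 (SE 0.09, adjusted p 7.27e-06).

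Against 30.6% lower and 18.2% higher among all features, the related genes of the pathway were counted in low against high. At an unadjusted p below 0.05, 6067 of the 15109 features were lower and 3706 higher. Of 11 mitochondrial translation factor genes tested, 5 were lower, 0 higher and 6 not called in limma, with 7 lower and 0 higher at an unadjusted p below 0.05. The largest decreases were those of mRF1, a release factor that ends translation (-1.28, SE 0.11), and mRRF1, which recycles the ribosome afterwards (-1.24, SE 0.10). Both passed 2-fold. The initiation factor mIF2 (-0.80), the elongation factor mEFTu1 (-0.54) and CG6094, a relative of a ribosome rescue factor (-0.85), were also lower. The paralogue mEFTu2 (-0.01), its exchange factor mEFTs (-0.05) and mEFG1 (0.13), which moves the ribosome along, were not called. Of 8 genes tested for mitochondrial transcription and RNA handling, 4 were lower, 0 higher and 4 not called in limma, with 5 lower and 0 higher at an unadjusted p below 0.05. The lower ones were mtTFB2 (-0.69), mTTF (-0.50), mTerf3 (-0.45) and mTerf5 (-0.64), all factors of mitochondrial transcription or ribosome assembly, while TFAM, which packages the mitochondrial DNA, missed the threshold (-0.27, adjusted p 0.0118). The mitochondrial rRNAs had no matched probe.

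For scale, of 84 cytoplasmic ribosomal protein genes 10 were lower (11.9%) and 2 higher in low against high, with a median change of -0.15. Of 74 nuclear genes for respiratory chain and ATP synthase subunits, 55 were lower (74.3%) and 3 higher, with a median of -0.52. At 11 °C against 14 °C the medians were 0.05 for the cytoplasmic ribosomal proteins, -0.07 for the respiratory chain genes and -0.29 for the mitochondrial ribosomal proteins. These families were set side by side without a test of their difference.

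The 12 arrays lay on 3 slides. Slide 1 held replicate 1 of every temperature, slide 2 the other low temperature arrays and slide 3 the other high temperature arrays, so only slide 1 compares low with high on the same slide. On slide 1 the member median in low minus high was -0.58, with 67 of 71 genes below 0, against -0.25 for all features, with 9752 of 15109 below 0. Between slides 2 and 3 the member median was -0.39, with 63 genes below 0, against -0.13 for all features, with 8690 below 0. All 47 called genes had the same direction in both, but they were called on these same arrays, so this is not an independent check. With slide as a block, 38 genes were lower and 1 was higher, against 25.9% and 11.4% of all features. In that setting the low against high change comes from slide 1 alone.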

How the data were processed

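The deposited scanner files of 12 arrays hold spot intensity on a linear scale, which the authors obtained with Agilent Feature Extraction 10.7.3.1 (per the file headers). The processed signal is background-subtracted and not normalised between arrays. The authors also deposited a log2 table of the same signals, shifted by a constant per array. It served as an alternative.

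Groups came from the sample titles. Control and outlier-flagged spots were left out, log2 signals were averaged per probe (32162 gene probes), and each array was shifted to the median of the 25 °C arrays. The detection filter asked for 50% or more of a probe's spots well above background on 2 or more of the 3 arrays of some temperature, and for values on 10 or more arrays. Probes were matched to symbols by CG identifier, older identifier or accession (RefSeq table of Release 6 plus ISO1 MT), for 60.7% of gene probes, and probes of a gene were averaged. The array's genome build was not given in the sources used here, and coordinates were left out. limma 3.58.1 in R 4.3.3 was fitted to all 12 arrays with a mean per temperature, and p-values were adjusted over all features (Benjamini-Hochberg). The fit was tested on simulated data.

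The members and lists were chosen with earlier results of these data known. Named were, per subunit, the 6 lowest and 3 highest changes in low against high, the 2 lowest and 2 highest of the other comparisons, members past both thresholds and those whose probes differed by over 0.5. mRpL2, mRpL3, mRpL12, mRpL55 and mRpS24 were named after their values were seen, as were the factors below 2-fold. Alternatives were 75th percentile, quantile, spike-in and bright-probe scaling, normexp background (offset 50, on median signals, without spots whose local background was over 2 times the array median), the log2 table, filters on dim probes, the brightest probe, slide or replicate number as a block, only the arrays compared, and each array left out. The number of arrays limits the precision.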

Additional observations from a re-analysis of the deposited data

How the results depend on the processing

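The counts of calls moved with the scaling of the arrays and, in single comparisons, with background correction, blocks or arrays left out. In low against high, 46 genes were lower and 23 with scaling on spike-in controls, and the 1 higher gene became 6 with 75th percentile, 6 with quantile and 6 with bright-probe scaling, 4 with spike-in scaling and 3 with normexp. The median of all members, -0.46, was -0.26, -0.29, -0.27, -0.22 and -0.31 under 75th percentile, quantile, bright-probe, spike-in and normexp settings, that of the large subunit -0.28, -0.32, -0.29, -0.25 and -0.31, and that of the small subunit -0.24, -0.26, -0.24, -0.20 and -0.29. With slide as a block the medians were -0.58 for all members and -0.61 for the small subunit, and with replicate 1 alone, an alternative chosen after seeing the data, the median was -0.58. These are the same estimate, because the slide block takes the low against high change from slide 1 alone, which holds replicate 1. The large minus small difference of -0.04 was -0.0003 with the brightest probe and 0.027 with slide as a block. At 11 against 25 °C, 44 genes were lower, 15 with spike-in scaling and 20 with only the arrays compared, and 0 higher genes became 2, 2, 2, 1 and 1 in the same order of scalings, 1 with the slide block and 1 with the replicate block. The medians under these scalings were -0.41, -0.45, -0.42, -0.35 and -0.43 for all members, -0.42, -0.45, -0.43, -0.37 and -0.44 for the large subunit, and -0.35, -0.38, -0.36, -0.29 and -0.37 for the small subunit, and large minus small was 0.030 with the brightest probe.

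At 14 against 25 °C, 16 lower genes became 7, 10, 7, 1 and 5 under these scalings, 7 without a filter on dim probes and 10 with only the arrays compared, and 0 higher genes became 1, 2, 1, 3 and 2, with 1 under the slide block and 1 under the replicate block. The medians were -0.11, -0.10, -0.12, 0.078 and -0.035 for all members (-0.46 with the slide block), -0.10, -0.088, -0.11, 0.090 and -0.027 for the large subunit (-0.44), and -0.12, -0.11, -0.13, 0.073 and -0.084 for the small subunit (-0.50). Large minus small was 0.057 with normexp and 0.052 with the slide block. At 30 against 25 °C, the 1 lower gene was lost (0) with spike-in scaling, normexp, no filter and only the arrays compared, and there were 3 with the slide block. Higher genes numbered 5 with quantile, 1 with spike-in scaling, 7 with normexp and 1 with the slide block. The medians were 0.092, 0.23 and 0.17 with quantile, spike-in and normexp for all members, 0.089, 0.22 and 0.15 for the large subunit, and 0.27 and 0.20 with spike-in and normexp for the small subunit. At 11 against 14 °C, 3 lower genes became 6, 11, 6 and 20 with 75th percentile, quantile, bright-probe and normexp settings, 6 with the slide block, and 0 without a filter or with only the arrays compared, and the median with spike-in scaling was -0.41. Among all 15109 features at 14 against 25 °C, 1466, 1783, 1514, 418 and 1026 were lower under 75th percentile, quantile, bright-probe, spike-in and normexp settings. There, 2246, 1984, 2196, 2171 and 1479 were higher, and the median of all features was 0.23 with spike-in scaling. At 11 against 25 °C, 2626, 3212, 2671, 1601 and 2571 were lower in that order, with 3478, 3048, 3437, 2741 and 2320 higher. The causes were not tested.

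Leaving out each array in turn gave 41 to 47 lower genes in low against high. The counts of lower genes were 36 to 48 at 11 against 25 °C, 6 to 20 at 14 against 25 °C, 0 to 2 at 30 against 25 °C and 0 to 7 at 11 against 14 °C, and higher genes at 11 against 25 °C were 0 to 1. The counts of all features moved as well. Lower were 4074 to 4826 of these in low against high, 2839 to 3670 at 11 against 25 °C and 1116 to 2405 at 14 against 25 °C. At 30 against 25 °C 518 to 1114 features were lower, and at 11 against 14 °C 62 to 654. Of the members at 14 against 25 °C, 10 were lower without replicate 1 at 14 °C, 6 without replicate 2 or 3 at 14 °C, 7 without replicate 2 at 25 °C and 9 without replicate 3 at 25 °C. At 30 against 25 °C the 1 call was kept without replicate 1 at 30 °C and became 2 without replicate 3 at 11 °C, and any other array left out gave 0. At 11 against 14 °C there were 7 without replicate 3 at 11 °C, 0 without any other array at 11 or 14 °C, 1 without replicate 2 or 3 at 25 or 30 °C, and the single higher gene at 11 against 25 °C came without replicate 1 at 14 °C. The median at 11 against 25 °C lay between -0.68 and -0.53, the large minus small difference between -0.14 and -0.033 there and between -0.072 and 0.0068 at 11 against 14 °C. Same-numbered arrays shared deviations in part (r between 0.09 and 0.57 over 18 pairs, 15 of them over 0.1), which does not establish a pairing. With the replicate block 46 genes were lower and 1 higher in low against high, 44 lower at 11 against 25 °C and 18 lower at 14 against 25 °C. Among all features, 5087 were lower and 3066 higher in low against high with that block. It gave 3987 lower features at 11 against 25 °C and 2447 at 14 against 25 °C. Of the 46 lower genes, 23 were lower in all 23 alternatives for low against high, and the matching share of all features was not counted. For the named genes, no called change turned its direction in any alternative, 36 of 821 values fell short of the threshold and 43 passed it anew. Small differences of dim probes are limited by background, but all tested member probes were well above it.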
